A study of Mus musculus with 3 samples.

Results

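The genes of the leukemia inhibitory factor (LIF) receptor, JAK and STAT pathway were examined in J1 mouse embryonic stem cells (mESCs) treated with PD0325901 (PD). The members were 9 genes taken by name: the ligand gene Lif, the receptor genes Lifr, Il6st and Il6ra, the kinase genes Jak1, Jak2 and Tyk2, the transcription factor gene Stat3 and the feedback inhibitor gene Socs3. They are 9 of 20660 genes that could be named on the array, and 12 of its 27235 named probes measure them. J1 is a single ESC line, from the inner cell mass of the mouse strain 129S4/SvJae. PD blocks MEK, the kinase directly upstream of ERK. All 3 samples carried the same treatment, 1 µM PD for 24 h, in feeder-free culture on gelatin with knockout serum replacement and LIF at 1000 U/mL, and per the study's methods they came from independent experiments. Total RNA of each was hybridised in 1 colour to 1 Agilent expression array. Cells without PD were not analysed here, so the values below are levels in treated cells and not responses to PD.

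LIF binds the LIF receptor, encoded by Lifr, which pairs with gp130, the signal-transducing chain encoded by Il6st. Kinases of the JAK family bound to these chains phosphorylate the receptor and then STAT3, which enters the nucleus and activates genes that keep mESCs undifferentiated. SOCS3 is induced by STAT3 and shuts the same receptor off, whereas the interleukin 6 receptor, encoded by Il6ra, brings a different ligand to gp130. The LIF in these cultures was added as protein, which the array does not measure.

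The stretches of genome around the start sites of Socs3 and Lif are shown because these genes lie at the ends of the pathway, the inhibitor and the ligand, and because their signals on the arrays were respectively far above background and not well above it. They were taken from the RefSeq table of GRCm38.p6 and run from 250 bases before to 50 bases after the start. Capitals mark the letters TTCNNNGAA, a pattern to which STAT proteins are known to bind and which reads the same on both strands. The window of Socs3 is at chr11:117969317-117969616 on the minus strand and that of Lif at chr11:4257318-4257617 on the plus strand.
Socs3: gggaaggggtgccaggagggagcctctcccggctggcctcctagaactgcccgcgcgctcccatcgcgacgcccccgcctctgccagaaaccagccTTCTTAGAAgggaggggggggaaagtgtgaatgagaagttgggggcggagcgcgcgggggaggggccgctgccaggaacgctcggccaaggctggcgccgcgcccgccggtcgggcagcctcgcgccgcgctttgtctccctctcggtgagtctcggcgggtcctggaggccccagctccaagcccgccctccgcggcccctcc
Lif: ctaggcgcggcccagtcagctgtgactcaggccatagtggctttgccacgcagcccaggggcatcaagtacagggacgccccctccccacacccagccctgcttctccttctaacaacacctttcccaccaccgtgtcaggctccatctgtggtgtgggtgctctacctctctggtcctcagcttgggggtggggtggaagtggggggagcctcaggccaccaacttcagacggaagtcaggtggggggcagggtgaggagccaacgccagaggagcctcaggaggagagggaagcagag

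The Socs3 window held 1 match, TTCTTAGAA, from position -154 to -146 relative to the start, and the Lif window held 0. Of the 10 windows that the table gives for the 9 members, including 2 for Lifr, this was the only match. Among all 32851 windows 8.30% had at least 1, so a single match in 10 windows is near the general share. A match describes the letters in the window and not a bound site. The windows of the members were rich in G and C, with a median content of 65.3% and a range from 53.3% to 81.3%, against a median of 52.7% over all windows. For 7 of the known STAT3 targets listed below, the table gives 8 windows. Their median content was 67.2%, so this richness was not particular to the members, and 0 of the 8 held the pattern. In the RefSeq order of protein-coding genes (GRCm38.p6), 4 of the 9 members lie beside a relative. The share of all genes with such a neighbour was not computed, so the count cannot be read as a trait of the members. Lif is next to Osm, the gene of the related cytokine oncostatin M, and Lifr is next to Osmr, which encodes a receptor chain for it. Il6st is next to Il31ra, another receptor gene of this family, and Stat3 is next to Stat5a. The genes beside the other 5 members are not cytokine, receptor, JAK, STAT or SOCS genes.

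The arrays were alike in their overall signal. The 75th percentile of the processed signal over probes was between 511 and 551 and 0 spots were saturated. Spots counted by the scanner software as well above background had signals of at least 10.1 to 11.4, depending on the array. Per the file headers all 3 arrays were on 1 slide. The array of replicate 2 had 187 spots that the scanner software marked as non-uniform, against 25 and 8 on the others, but 0 of the 21 spots of the members carried an outlier flag on any array. The ESC markers Pou5f1, Nanog, Sox2, Esrrb and Zfp42 were detected on all 3 arrays, and their summed signal was between 82089 and 90200. Within that sum Pou5f1 had signals of 11265, 16872 and 10239 on replicates 1 to 3, and Sox2 had 6453, 4835 and 6827. The arrays lay closer together for Nanog, Esrrb and Zfp42. Of the 6 fibroblast markers, Col1a1, Col1a2 and Thy1 were detected and Col3a1, Lum and Postn were not, with a summed signal between 1228 and 1348. Of 5 blood cell markers on the array, Ptprc, Csf1r and Cd3e were detected, with a summed signal between 1907 and 2046. In bulk RNA, a transcript in few cells and a low level in all cells cannot be told apart.

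Transcripts of the receptor, the kinases, Stat3 and Socs3 were all measured in PD-treated cells, whereas that of the ligand was not well above background. Of the 12 probes, 11 were flagged well above background on each of the 3 arrays, against 72.4% of all named probes. Of the 9 genes, 8 were detected, against 72.7% of all named genes. The mean signals of the 11 detected probes lay between 202 and 14640. Below, the level of a probe is the log2 of its processed signal minus the 75th percentile of its array, and errors are SDs over the 3 arrays. Signals also depend on the sequence of the probe, so levels of different genes are given side by side and not compared.

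**Figure D1:**
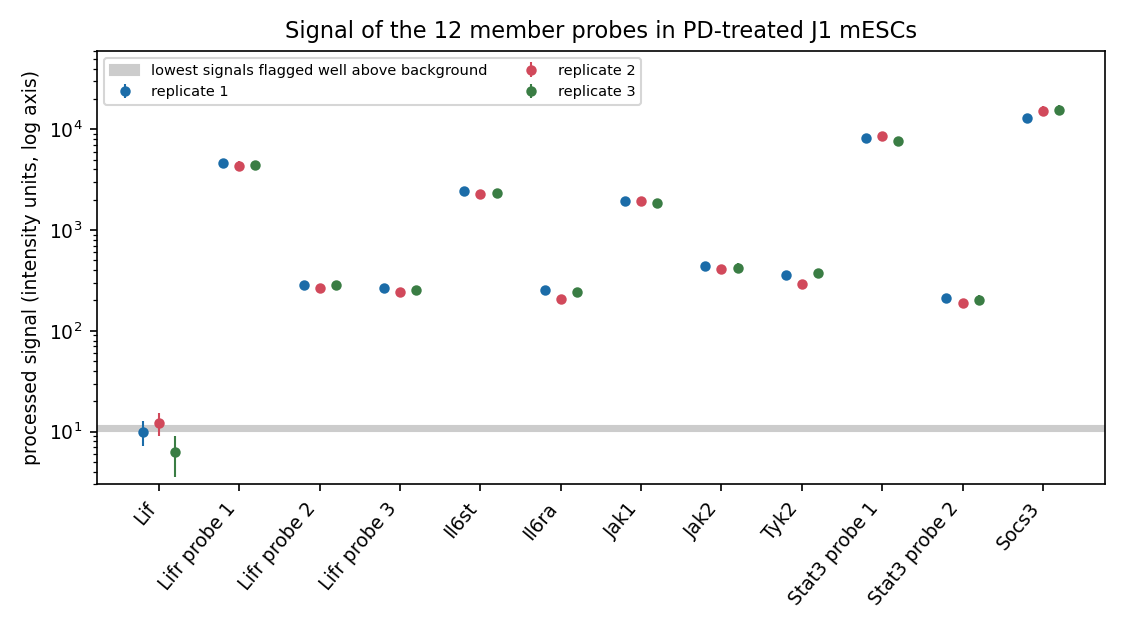
Processed signal of each of the 12 member probes (log axis, intensity units) on the arrays of replicates 1 to 3. Bars are the error that the scanner software gives for a spot (the mean over 10 spots for Stat3 probe 1), and the grey band spans the lowest signals flagged well above background on the 3 arrays. Lif lies around the band, with signals of 9.98 and 6.33 below it on replicates 1 and 3 and 12.3 above it on replicate 2, and every other probe lies above it with signals of at least 190.

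Lif, the ligand gene, had signals of 9.98, 12.3 and 6.33 on replicates 1 to 3, with scanner errors of 2.78, 3.13 and 2.76. It was not flagged well above background on any array. The looser flag of the scanner software, for a positive signal that differs significantly from background, was set for Lif on all 3 arrays, so that it held for 12 of 12 member probes, against 80.9% of all named probes. It was also set on all arrays for 20.3% of the 6130 named probes that were never well above background, and on 4.55% to 7.79% of the 308 negative control spots of an array. The Lif signals were above the median of the negative control spots, which was 2.42, 2.75 and 2.48. On replicate 2 the 95th percentile of the negative control spots was 12.7, above the Lif signal there, whereas on replicates 1 and 3 it was 2.74 and 2.82. The 3 arrays thus placed Lif around the limit of detection, and its differences between them were not tested.

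Lifr, which encodes the LIF-binding chain, was measured by 3 probes of 1 spot each. Its brightest probe had signals of 4616, 4359 and 4374 and a level of 3.07 ± 0.02 (n = 3). The second had signals of 284, 264 and 287, with a level of -0.93 ± 0.04, and the third had signals of 267, 244 and 253, with a level of -1.06 ± 0.01. All were detected on each array. Their levels are not compared, since a signal also depends on the probe. The brightest and the second probe carry the same transcript accession, NM_013584, and the third carries NM_001113386. RefSeq lists 7 transcripts of the gene. The files hold no sequences of the probes, so where each lies in these transcripts was not analysed here. With this scaling the arrays differed by at most 0.08 log2 units in any of the 3 probes. Lifr and Stat3 are the members with more than 1 probe, and in 0 of these 2 genes was 1 probe detected and another not, against 17.8% of the 5476 genes with several probes.

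Il6st, the gene of gp130, had signals of 2423, 2253 and 2343, and after scaling its levels were 2.14, 2.14 and 2.15. The mean level was 2.14 ± 0.01, and the arrays could hardly be told apart, although their range was 0.10 log2 units with scaling to array medians. Il6ra, which encodes the interleukin 6 binding chain, had signals of 254, 207 and 242 and a level of -1.18 ± 0.11. Replicate 2 was the low one for Il6ra under each of the 7 ways of scaling or processing the values, with a range between arrays from 0.09 to 0.27 log2 units. Here and below, these ways use the same spots of the same arrays. Their agreement is therefore not independent support for a difference between samples.

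The kinase genes showed small differences between the arrays, apart from Tyk2. Jak1, whose product is the kinase held to act chiefly with gp130, had signals of 1950, 1943 and 1857 and a level of 1.86 ± 0.06. Jak2 had signals of 441, 410 and 424, and its level was -0.32 ± 0.0028, the smallest SD of the 11 detected probes. Its range was 0.0052 log2 units here and 0.095 with the median of each array, so this closeness depended on the scaling. The spot of Jak2 lies in an area where replicate 2 had many non-uniform spots, but it carried no outlier flag. Tyk2 had signals of 354, 291 and 373 and levels of -0.64, -0.81 and -0.50, that is -0.65 ± 0.16. In Tyk2 replicate 2 was again the lowest and replicate 3 the highest. The range between them was 0.32 log2 units, and after signals and errors were divided by the 75th percentile of their array, replicate 2 minus replicate 3 was -1.53 combined scanner errors. Replicate 2 was the lowest under each of the 7 ways of processing.

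Stat3, the transcription factor activated by LIF, was measured by 2 probes, of which 1 is printed 10 times on each array. The 10 spots had mean signals of 8129 ± 232, 8557 ± 347 and 7654 ± 144 on replicates 1 to 3 (SD of the 10 spots). The levels of these spots ranged from 3.83 to 3.96 on replicate 1, from 3.97 to 4.17 on replicate 2 and from 3.82 to 3.89 on replicate 3. On this scale the spots of replicate 2 therefore did not overlap with those of the other arrays, whereas those of replicates 1 and 3 did overlap. The separation from replicate 1 depended on the scaling. Before scaling, the lowest signal on replicate 2 was 8030 and the highest on replicate 1 was 8567. With the median of each array, replicate 1 minus replicate 2 was -0.135 log2 units, against -0.180 here. The share of other probes with 10 spots that separate in this way is not given here. Over the arrays the level was 3.94 ± 0.11.

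**Figure D2:**
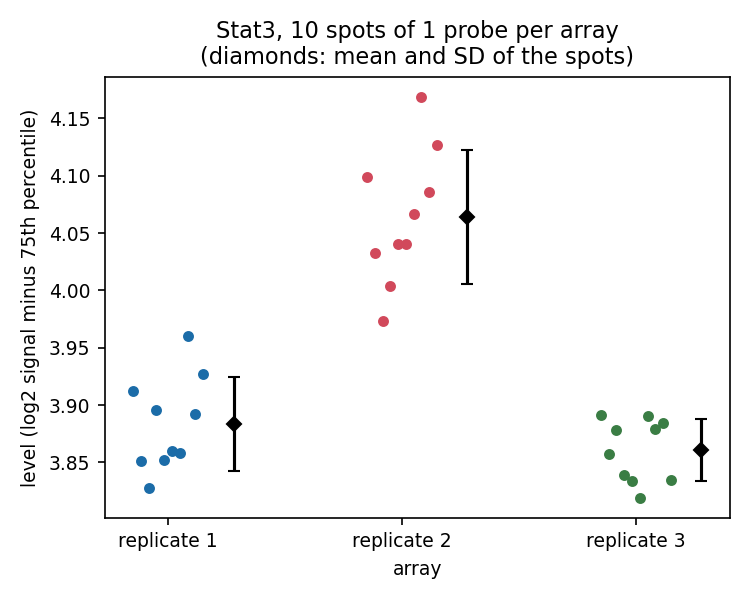
Level of Stat3 (log2 of the processed signal minus the 75th percentile of the array) for the 10 spots of its repeated probe on each array. Points are spots, and diamonds with bars are their mean and SD. The lowest spot of replicate 2, at 3.97, lies above the highest of replicate 1, at 3.96, and of replicate 3, at 3.89.

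The repeated spots of Stat3 gave an error within each array. The 284 detected probes with 10 spots were fitted together with limma (moderated F test, Benjamini-Hochberg adjustment), and Stat3 differed between the 3 arrays with an adjusted p of 1.05e-08. That test called 40.5% of these probes, so a difference between the arrays was common among them. Replicate 1 minus replicate 2 was -0.18 log2 units (95% interval -0.22 to -0.14, a difference of 13.3%), with an adjusted p of 1.45e-07 from limma, and 23.2% of the 284 probes were called in this direction. Replicate 2 minus replicate 3 was 0.20 log2 units (0.16 to 0.25, or 15.1%), with an adjusted p of 1.42e-08 from limma, a direction called for 19.4% of the probes. With the median of each array as the scale, replicate 2 minus replicate 3 was 0.113 log2 units, outside that interval. Replicate 1 minus replicate 3 was 0.023 log2 units (-0.021 to 0.066), with an adjusted p of 0.618 from limma, and 1.76% of the probes were called in that direction. Replicate 2 was the highest array for this Stat3 probe under each of the 7 ways of processing. Without replicate 2, the adjusted p of limma for the difference that is left was 0.488. Of the 10 spots, 2 lie in those areas of the array where replicate 2 had many non-uniform spots, and without these areas the adjusted p of limma was 1.54e-08. The error here is that of the spots, so the test is about these 3 hybridised samples. The intervals do not include the choice of scaling between the arrays.

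The other Stat3 probe, with 1 spot, had signals of 213, 190 and 204 and levels of -1.37, -1.43 and -1.37, that is -1.39 ± 0.03. It was detected on all arrays. Replicate 2 was its lowest array, not its highest, under each of the 7 ways of processing, although its range of 0.06 log2 units was within the scanner error of a spot. It carries the accession NM_011486 and the repeated probe NM_213659, and RefSeq lists 4 transcripts of Stat3.

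Socs3, the inhibitor induced by STAT3, had signals of 12912, 15327 and 15679 on replicates 1 to 3. Its levels of 4.55, 4.91 and 4.90 gave a mean of 4.78 ± 0.20, the largest SD of the 11 detected probes, although with the median of each array and in the deposited table the range of Tyk2 was larger. Replicate 1 was the low one, by 0.35 log2 units against replicate 2 and 0.34 against replicate 3, while replicate 3 minus replicate 2 was -0.01. Replicate 1 stayed the lowest under each of the 7 ways of scaling or processing, with a range from 0.34 to 0.39, but all of them rest on the same spots. With 1 spot per array the difference had no error of its own. In combined scanner errors on the same scaled signals, replicate 1 was at -1.71 from replicate 2 and at -1.67 from replicate 3.

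The spread between the arrays depended on how the members were counted. The median SD of the 11 detected probes was 0.045 log2 units, against 0.077 over 19674 named probes detected on all arrays. Of the 11 probes, 3 are of Lifr and 2 of Stat3. Over the 8 detected genes, each by its brightest probe, the median SD was 0.083 log2 units. Without replicate 2 the median SD of the 11 probes was 0.011, and with the median of each array as the scale it was 0.072. Since the SD depends on the signal, each probe was also set beside the median SD of its class when the detected named probes were divided into 4 classes of equal size by mean level. In 4 of the 11, those of Il6ra, Tyk2, Socs3 and the repeated Stat3 probe, the SD was above that median, which was 0.082 in the second class (Il6ra and Tyk2) and 0.056 in the highest (Stat3 and Socs3). In the other 7 it was below, and by construction a median has as many probes of its class above it as below. None of the 11 probes (0) spanned more than 1 log2 unit, against 1.13% of the named probes. Of the 10 detected probes with 1 spot, 0 had a pair of arrays more than 2 combined scanner errors apart after scaling, against 7.32% of 19377 such probes. The scanner error was at most 10.1% of the signal for these 10 probes, while the 10 spots of Stat3 varied by only 1.88% to 4.06% within an array.

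**Figure D3:**
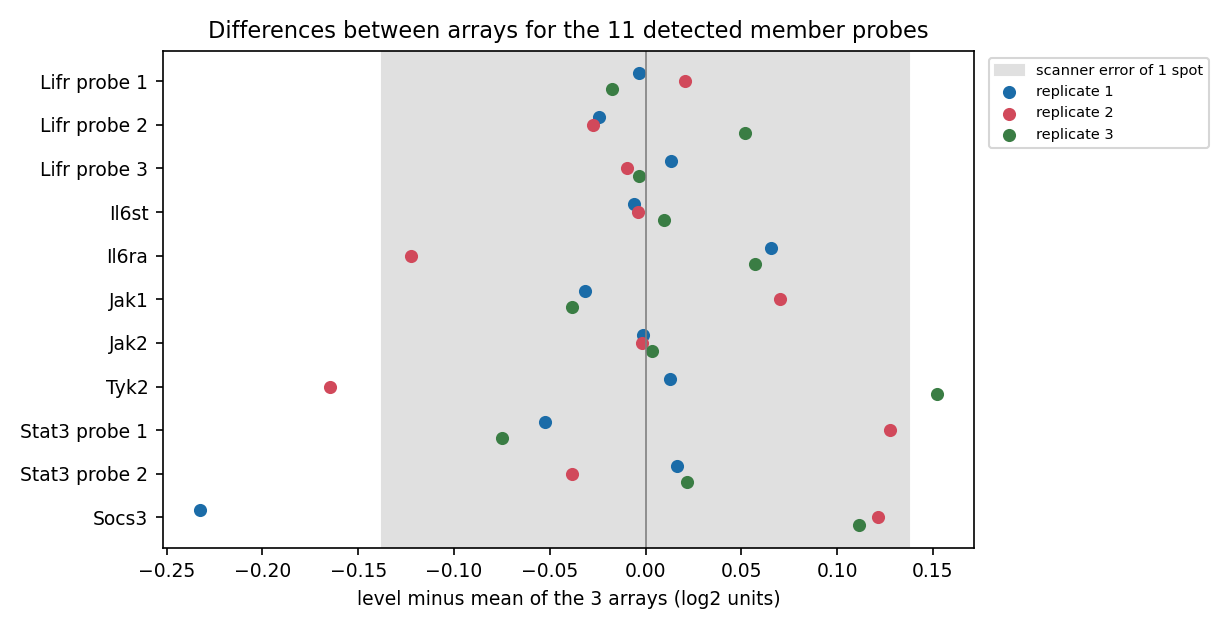
Level on each array minus the mean of the 3 arrays, in log2 units, for the 11 detected member probes. The grey band is the mean scanner error of a spot turned into log2 units. Points lie outside the band for Tyk2 (replicates 2 and 3) and Socs3 (replicate 1). Replicate 2 is the lowest array in 6 of the 11 probes, replicate 3 in 3 and replicate 1 in 2, and the shares over all named probes are not given.

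The members did not share a highest or a lowest array. Replicate 1 was the highest in 2 of the 11 probes, replicate 2 in 4 and replicate 3 in 5. These counts moved with the scaling, and without the same counts over all named probes they cannot be read as a trait of the members. With the median of each array, replicate 3 was the highest in 9 and replicate 2 the lowest in 8 of the 11 probes, and after normexp correction replicate 1 was the highest in 5 and replicate 3 the lowest in 5. With 3 samples of 1 group, no correlation between members was computed.

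The other genes of the pathway were then examined, to see which parts of the family left transcripts besides those of the LIF axis. Of 56 such genes 52 (92.9%) were detected by their brightest probe, against 72.7% of all named genes. Among 8 other ligands that act through gp130 or its partners, all but Il6 were detected. Il6 had signals of 9.43, 7.35 and 4.98. Osm, the neighbour of Lif, had signals of 14.8, 20.7 and 16.0, and Clcf1 had 14.5, 15.3 and 19.2. Osm and Clcf1 thus lay just above the limit of detection.

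Of 4 other receptor chains used with gp130, Il11ra1, Cntfr and Il27ra were detected and Osmr was not. Osmr, the neighbour of Lifr, had signals of 6.25, 5.25 and 8.22. Il11ra1, the interleukin 11 receptor, had signals of 2246, 2106 and 2043. Cntfr, the receptor for ciliary neurotrophic factor, had signals of 193, 418 and 186. It was the only one of the 52 detected genes whose arrays differed by more than 1 log2 unit (1.23), with replicate 2 as the high one, and its probe has 1 spot.

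The other JAK and STAT genes were all detected (7 of 7). Jak3, a kinase best known from lymphocytes, had signals of 267, 287 and 283. Stat2, which acts in the response to interferons, had signals of 2235, 2230 and 2237. Stat5a and Stat5b, relatives of Stat3, had levels of 0.31 ± 0.08 and 0.32 ± 0.04. All 15 regulators were detected as well. Among the SOCS genes Socs2 had a level of 2.92 ± 0.01, Socs7 of 2.50 ± 0.03 and Socs5 of -4.93 ± 0.18. Socs1, whose product also inhibits JAK kinases, had signals of 559, 348 and 500, lowest on replicate 2, and its spot lies in an area where that array had many non-uniform spots. Spots of Socs2 and, among the genes below, of Gbx2 and Il7r also lie in such areas. Ptpn11, which encodes the phosphatase SHP2 that binds gp130 and links it to ERK, had a level of 4.46 ± 0.03. The median SD of the regulators was 0.042 log2 units over genes, each by its brightest probe, against 0.083 over the 8 detected members taken in the same way.

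Known targets of STAT3 in mESCs were detected in 9 of 9 cases, with a median SD of 0.080 log2 units, again over genes by their brightest probe. Klf5 had a level of 4.99 ± 0.07, Bcl3 of 3.73 ± 0.03, Pim3 of 2.67 ± 0.02, Gbx2 of 1.96 ± 0.08 and Pim1 of 0.62 ± 0.12. Junb, which also responds to ERK, had signals of 33.7, 34.7 and 35.0. The targets Klf4, Tfcp2l1 and Myc were detected too, at mean levels of 4.48, 3.84 and 0.29. Whether their levels depended on LIF or on PD was not analysed here. Of 13 receptors that signal through JAK kinases without LIF, 11 were detected, and Il7r and Il10ra were not. Csf3r, the receptor for granulocyte colony-stimulating factor, had signals of 54964, 47747 and 51271, and Il7r, a receptor of lymphocytes, had 2.19, 2.48 and 2.23.

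**Figure D4:**
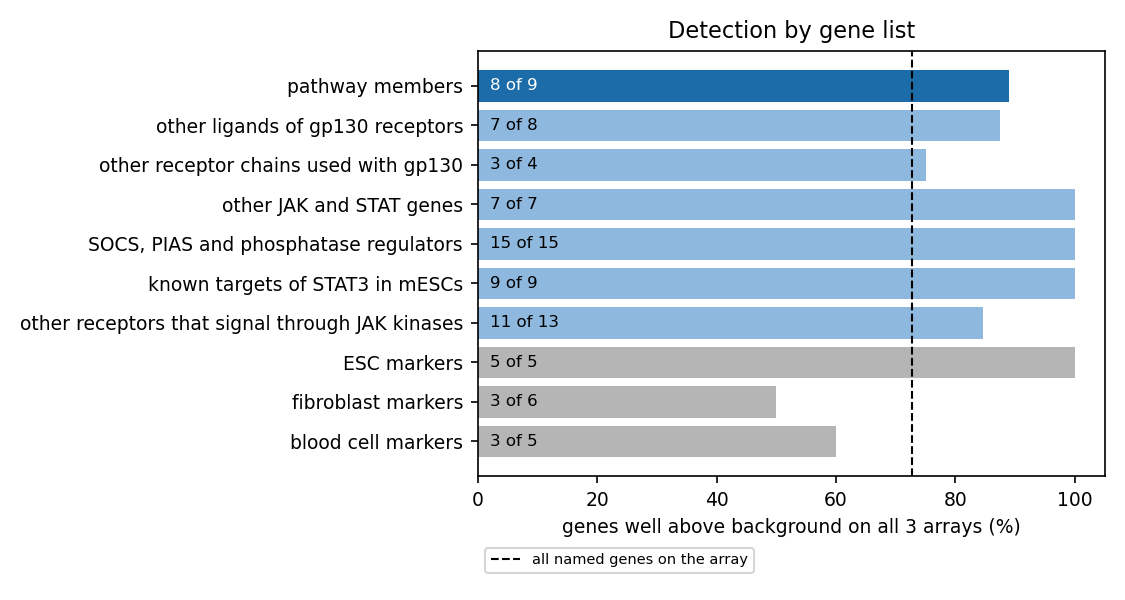
Share of the genes of each list that were well above background on all 3 arrays by their brightest probe, in percent, with the number of genes written in each bar. The dashed line marks the share over all named genes, 72.7%. The members are in dark blue, other lists of the pathway in light blue and markers of cell types in grey.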

How the data were processed

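Total RNA from J1 mESCs treated with PD was measured in 3 samples of 1 group on Agilent 1-colour arrays. Per the file headers, the authors made spot intensities with Feature Extraction 10.7.3.1, which subtracted background and removed trends within each array, and they set no scaling between arrays in these files. They also deposited a table of log2 values with no statement of its normalization. Probes were named by matching their accession, without version, to the RefSeq table of GRCm38.p6 (27235 of 55681 probes, 48.9%). The grid of the array refers to mm9, so no coordinates of probes are given. The coordinates of the Socs3 and Lif windows are those of GRCm38.p6. Processed signals were put on the log2 scale, spots with outlier flags were left out, spots of a probe were averaged, and the 75th percentile of the non-control probes of that array was subtracted. A probe counted as detected where 50% or more of its spots had the well-above-background flag on every array, and a gene was represented by its brightest probe. The 284 detected probes with 10 spots were compared between arrays with limma 3.58.1 in R 4.3.3 at an adjusted p of 0.05, and the script was tested on simulated data. For differences in scanner errors, signals and the errors given by the software were divided by the 75th percentile of their array, and the combined error of a pair is the root of the summed squares of these scaled errors. The number of arrays limits the precision. The members and the lists were chosen with earlier results of these data known. Every member is named. Of the other lists, the ESC markers and the detected or undetected genes, whichever were fewer, were named by rule, and the other examples were chosen after their values were seen. Some genes of these lists are not reported here by name. Alternatives were other scalings, normexp correction (offset 50) of the median spot signal, the deposited table, other detection rules, another rule for genes with several probes, and leaving out each replicate.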

Additional observations from a re-analysis of the deposited data

How the results depend on the processing

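No paired analysis was possible because every sample carried PD. Member probes detected numbered 11, and 12 with the looser flag for positive and significant signals, which added Lif. The number of detected genes was 8, and 9 with that flag, and the other rules left both counts as they were. Detection of the other pathway genes was 52 of 56 and 55 with the looser flag. The median level over the 9 members was 1.86. It moved with the zero point of the scale, to 5.60 with the median of each array, -0.062 with the percentile over detected probes and 1.55 after normexp correction, and to 0.36 when the detected probes of a gene were averaged. Leaving out each replicate in turn gave 1.82 to 1.88. The median SD of the detected probes, 0.045 log2 units, was 0.072 with the median of each array, and with a replicate omitted it ranged from 0.011 (without replicate 2) to 0.042. The adjusted p of limma for Stat3 was between 1.54e-08 and 0.0232 over the alternatives with all 3 arrays, the highest after normexp correction. With 1 replicate left out it was between 9.72e-07 and 0.488, and the call was lost without replicate 2. The difference of replicate 1 minus replicate 3, 0.023 log2 units, turned to -0.022 with the median of each array, and neither was called. With that same scale replicate 2 minus replicate 3 fell from 0.20 to 0.113 log2 units and stayed called. The omission of areas with at least 10 non-uniform spots on replicate 2 was chosen after seeing the data. Probes near background, such as that of Lif, are limited by their signal.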
